A study of Mus musculus with 6 samples.

Results

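The cytosolic ribosomal protein genes encode the proteins of the large (Rpl, Rplp) and small (Rps, Rpsa) subunits of the ribosome that translates nuclear messages. They were taken from a table of normalized counts by gene symbol, with a mean over the 6 libraries of at least 50 normalized counts and with rows marked as pseudogenes by the suffix -ps left out. Of 15944 genes, 87 had such a symbol and 84 passed the minimum, 49 of the large and 35 of the small subunit. The 3 that did not pass were Rpl39l, Rps4l and Rpl32l, with means of 5.89, 20.29 and 26.95, and the lowest that passed were Rps3a2, Rps12l1 and Rps3a3, with means of 136.9, 137.81 and 146.66. GENCODE release M21 annotates 80 of the 84 as protein-coding and Rps3a2, Rps3a3, Rps12l1 and Rpl6l as processed pseudogenes, which are copies of a spliced message inserted elsewhere in the genome, so the symbol rule also took in copies.

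Bulk RNA-seq was done on splenic regulatory T cells (Tregs) of C57BL/6 mice, the T cells that carry Foxp3 and hold immune responses in check. All 6 libraries came from cells positive for CD3, CD4 and a red fluorescent Foxp3 reporter. The 3 RORγt+ libraries held cells positive for a green fluorescent reporter of the transcription factor RORγt, and the 3 RORγt− libraries held cells negative for that reporter and positive for the chemokine receptor CCR6. CD4+ cells were enriched with magnetic beads before the sort. No label ties a library to its own animal, and the age and number of the mice are not stated there. P-values therefore set the difference between the groups only against the scatter of these 6 libraries within their groups, and that scatter may be technical.

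Each ribosome carries a single copy of nearly every ribosomal protein, and cells make these proteins in matched amounts. Vertebrate ribosomal protein messages begin with an uninterrupted run of pyrimidines, the 5′ terminal oligopyrimidine (TOP) motif, through which the kinase complex mTORC1 and the RNA-binding protein Larp1 control their translation and stability. T cells enlarge their ribosome supply when they are activated, and Tregs depend on mTORC1 for their function.

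Foxp3, read as a check of the sort, lay between 9790 and 12609 normalized counts in all 6 libraries. It was higher in RORγt+ without overlap, at 10835, 11072 and 12609 against 9914, 10187 and 9790, and was not called (limma adjusted p = 0.595). Approximate depths, from an estimated value of a single read, ran from 9200000 to 11400000 reads in RORγt+ and from 11200000 to 14500000 in RORγt−. They are rough, because only 51.9% to 69.9% of low values lay within 0.1 read of a whole read. RORγt+ replicate 3 was the shallowest by this estimate and stood apart: 1247 genes had a value of 0 there, and no other library had more than 638. Results that rest on it are also given without it. Of 5 markers of monocytes and macrophages 4 were measured and summed to 238.81 to 366.42 normalized counts in RORγt+ and 821.71 to 961.5 in RORγt−. Cybb made up most of the RORγt− sum and was called lower in RORγt+ (limma adjusted p = 0.00859). Lyz2, Csf1r and Cd68 were each below 100 in every library and did not follow Cybb. Csf1r was higher in RORγt+ without overlap, at 5.61 to 9.04 against 1.15 to 4.99. Lyz2 and Cd68 overlapped, with means of 42.88 and 15.76 in RORγt+ against 10.59 and 16.81 in RORγt−. Summed markers of B cells (688 to 1369) and of red cells and platelets (49.5 to 3796) overlapped between the groups. Plasma cell markers summed to 1179.65 to 1252 in RORγt+ and 979 to 1102 in RORγt−, without overlap, and Xbp1 made up most of each sum. Xbp1 and Sdc1 were each higher without overlap in RORγt+, with Sdc1 at 15.12 or less in every library. Jchain and Prdm1 overlapped between the groups, Prdm1 with a lower mean in RORγt+, and Mzb1 was at 0 in 4 libraries. The part of any of these in the results was not tested.

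Ribosomal protein messages made up 7.33% to 9.647% of all normalized counts in these Tregs. Their summed share was 8.142%, 7.33% and 9.232% in RORγt+ replicates 1 to 3 and 9.647%, 8.968% and 8.798% in RORγt− replicates 1 to 3. RORγt+ replicates 1 and 2 lay below every RORγt− library, while RORγt+ replicate 3 lay among them, so the groups overlapped. The means were 8.24% ± 0.954 in RORγt+ and 9.14% ± 0.449 in RORγt− (SD, n = 3 each), a difference of −0.903 percentage points that is smaller than the SD of the RORγt+ group. The large subunit took 4.81% ± 0.486 against 5.41% ± 0.269 and the small subunit 3.43% ± 0.469 against 3.73% ± 0.18 (SD, n = 3). In bulk RNA, fewer cells with many ribosomal protein messages and fewer such messages per cell cannot be told apart.

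**Figure D1:**
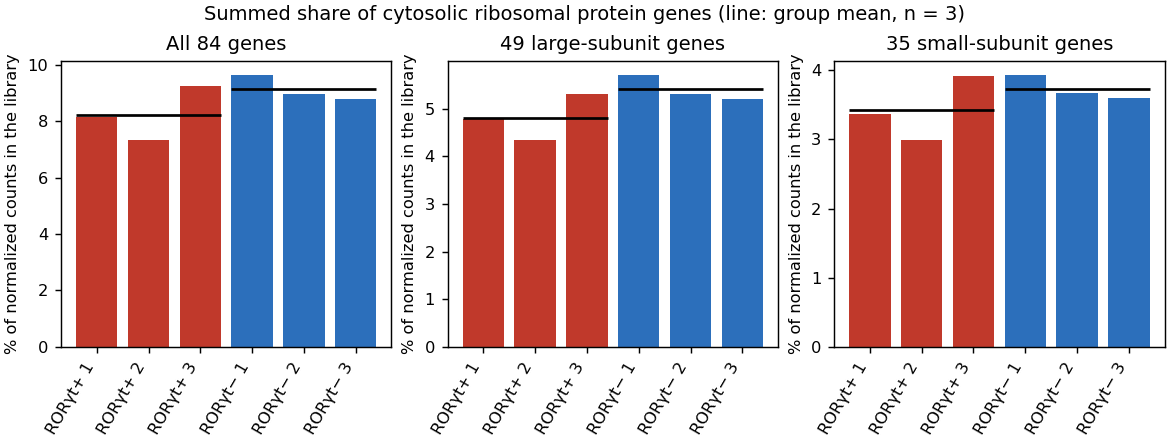
Summed normalized counts of the cytosolic ribosomal protein genes as a percent of the library's total (y axis), for all 84 genes and by subunit. Each bar is 1 library, red for RORγt+ and blue for RORγt−, and black lines are group means (n = 3); RORγt+ replicates 1 and 2 are lowest, and RORγt+ replicate 3, at 9.232% for all genes, lies among the RORγt− libraries.

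Other abundant messages can be set beside this share. The 13 genes encoded by the mitochondrial genome, which specify respiratory chain and ATP synthase subunits, took 4.797%, 4.19% and 3.899% of normalized counts in RORγt+ and 5.043%, 6.259% and 6.204% in RORγt−. Those groups did not overlap, with all RORγt+ libraries lower, and RORγt+ replicate 3 was lowest there, unlike in the ribosomal protein share. The 154 rows of ribosomal protein pseudogenes with the suffix -ps added 0.364% ± 0.063 and 0.394% ± 0.0286 (SD, n = 3), and 108 of them had a log2 fold change below 0.

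Gene by gene, most of the 84 had a lower mean in RORγt+ Tregs, by a small amount, and none passed the test. The log2 fold change (RORγt+ minus RORγt−, on the log2(value + 1) scale) was below 0 in 76 of 84, against 51.2% of all genes. The median over the 84 was −0.18, or −11.5%, against −0.01 over all genes. Limma called 0 of the 84 at a Benjamini-Hochberg adjusted p under 0.05, where it called 0.564% of all genes, 0.245% lower and 0.32% higher. The smallest adjusted p was 0.184, for Rpl23a. At an unadjusted p under 0.05 there were 17 lower, against a background of 6.12% of all genes, and 0 higher, against 4.8%. In 33 genes every RORγt+ library was below every RORγt− library, against 9.81% of all genes, and in 1, Rps27l, every RORγt+ library was above, against 8.31%. The genes share libraries and a common level per library, so these counts do not add up independent observations.

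By subunit, the lower values were found in both. Of the 49 large-subunit genes, 47 had a fold change below 0, with a median of −0.19, and 23 were lower with no overlap between groups. Of the 35 small-subunit genes, 29 were below 0, with a median of −0.10, and 10 were lower with no overlap. The difference between subunits was not tested, because members of a list are not replicates.

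**Figure D2:**
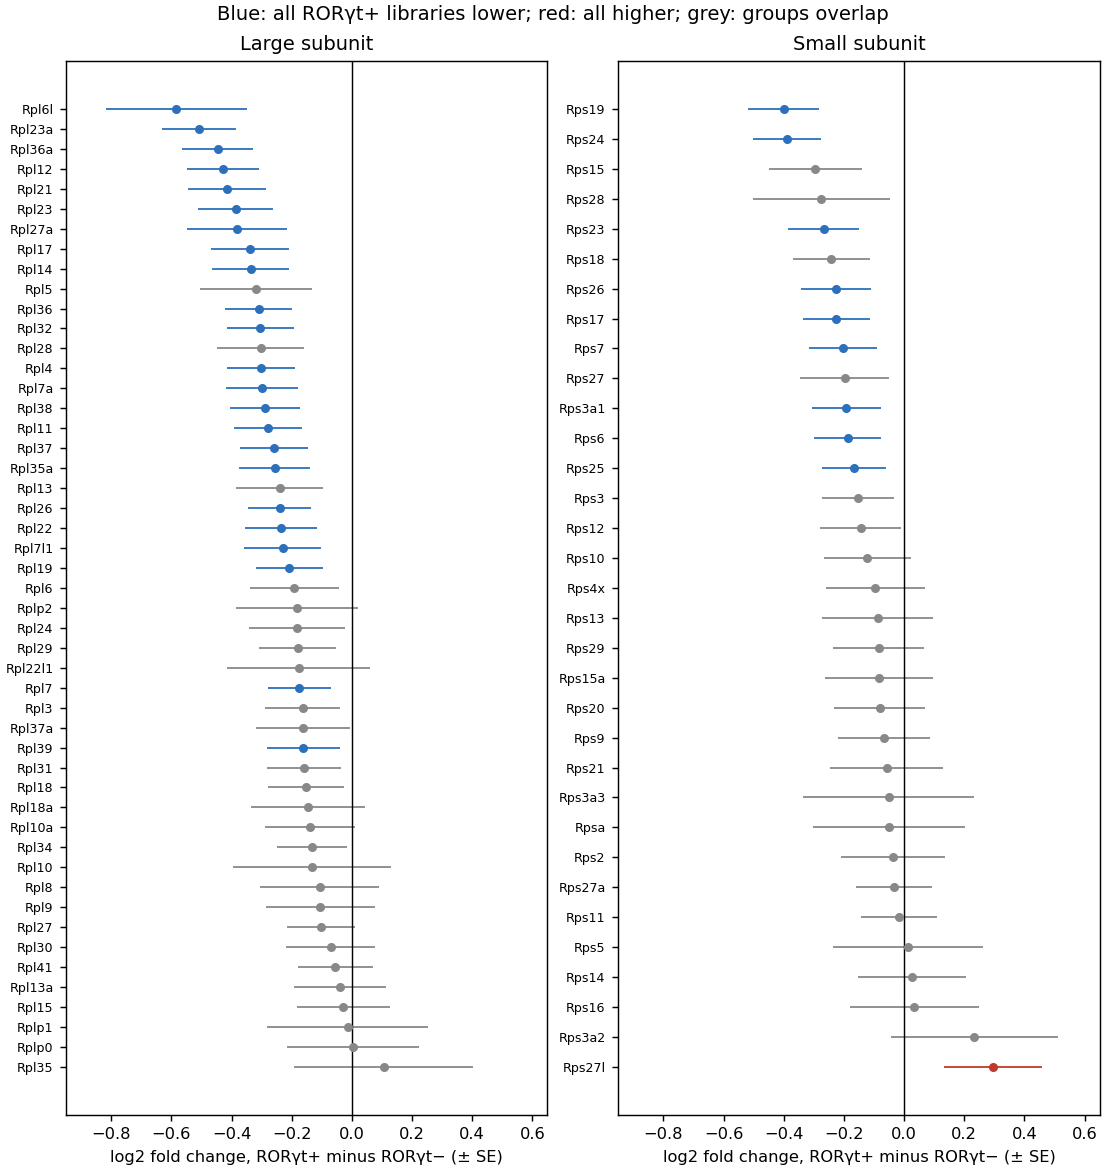
Log2 fold change of each gene (x axis, RORγt+ minus RORγt−, on the log2(normalized count + 1) scale) with its standard error, by subunit and ordered by size; Rps12l1 and 1 further gene are not drawn. Blue genes have all RORγt+ libraries below all RORγt− libraries, the red gene has all above, and grey genes overlap; Rpl23a is among the lowest and Rps27l is the red gene.

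The 6 libraries did not line up as 2 groups. Each gene's log2 value was set against its own mean over the 6 libraries. The median of these deviations over the 84 genes was −0.08, −0.26 and 0.08 in RORγt+ replicates 1 to 3, and 0.16, 0.05 and 0.06 in RORγt− replicates 1 to 3. RORγt+ replicate 2 had the lowest value of the 6 in 62 genes and RORγt− replicate 1 the highest in 45. RORγt+ replicate 3 was split, being the lowest of 6 in 17 genes and the highest in 32. The spread of the deviations over the 80 protein-coding genes was also widest there, with an SD of 0.288 against 0.067 to 0.117 in the other 5 libraries.

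Counted against the RORγt− libraries, RORγt+ replicate 1 lay below all of them in 68 of 84 genes and replicate 2 in 81, against 29.9% and 30.2% of all genes. RORγt+ replicate 3 lay below all of them in 37 and above all of them in 33, against 37.5% and 34.4% of all genes. In 68 genes replicates 1 and 2 were both below. Of those, replicate 3 was also below in 33, within the RORγt− values in 12 and above them in 23. The median coefficient of variation of the 80 protein-coding genes was 12.5% in RORγt+ and 5.29% in RORγt−, and it was larger in RORγt+ for 73 of 80. Between RORγt+ replicates 1 and 2 alone it was 8.05%.

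**Figure D3:**
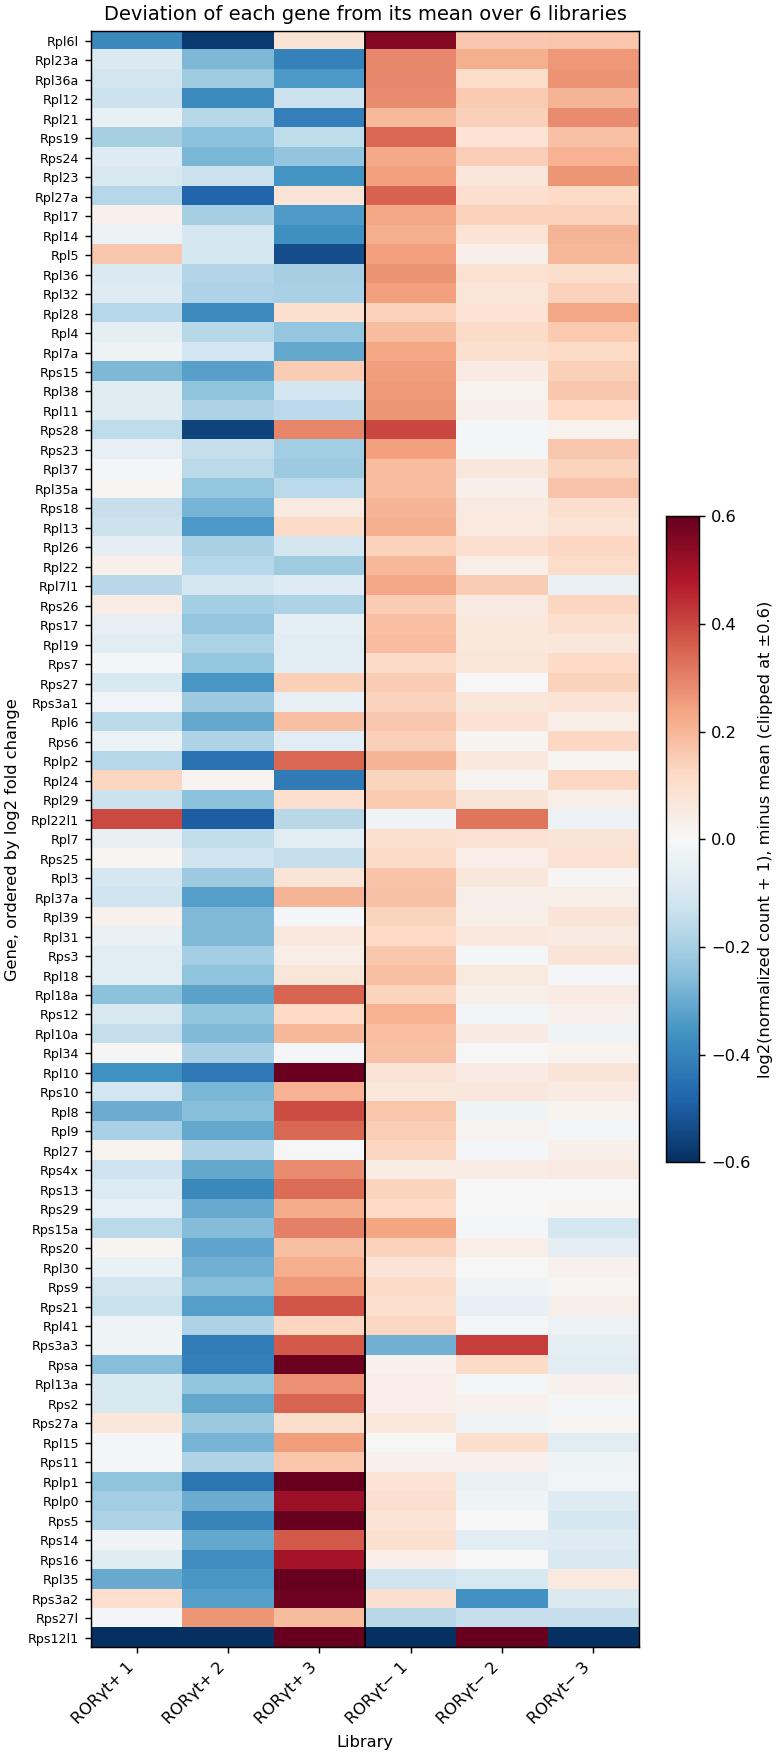
Each row is 1 gene (1 gene is not drawn) and each column 1 library; color is the log2(normalized count + 1) minus the gene's mean over the 6 libraries, red above and blue below, clipped at ±0.6, with genes ordered by log2 fold change. RORγt+ replicates 1 and 2 are mostly blue, RORγt− replicate 1 is mostly red, and RORγt+ replicate 3 runs from blue at the top to red at the bottom. The fold change that sets the order includes RORγt+ replicate 3, so part of that run comes from the ordering.

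Without RORγt+ replicate 3 the median over the 84 genes was −0.25 and 82 were below 0. Limma again called 0 of them, where 1.09% of all genes were called. At an unadjusted p under 0.05 there were 51 lower, where 2829 of all 15944 genes had such a p in either direction. Of the 84, 68 were lower with no overlap, where 18.4% of all genes were. The smallest adjusted p was then 0.0539, for Rpl10, followed by Rps15 at 0.0839, Rpl23a at 0.0846 and Rpl12 at 0.0944. A fit in which limma weights each library by its scatter gave RORγt+ replicate 3 a weight of 0.199 and called 2.25% of all genes. It called 0 of the 84, with Rpl23a nearest at an adjusted p of 0.0507. There 44 were lower at an unadjusted p under 0.05, against 2728 of all 15944 genes in either direction. Without RORγt+ replicate 2 the median was −0.08 and 56 were below 0, so the size of the median rests on that library.

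Among the large-subunit proteins, Rpl23a, which lies at the exit of the tunnel through which the new protein leaves the ribosome, had the lowest fold change of the protein-coding genes. Rpl23a (ENSMUSG00000058546, chromosome 11, 78180932 to 78183584, GRCm38) stood at 22249.8, 19637 and 17857 normalized counts in RORγt+ and at 28886, 27424 and 28324 in RORγt−. All 3 RORγt+ libraries were below all 3 RORγt− libraries, with RORγt+ replicate 3 lowest. The log2 fold change was −0.51 ± 0.12 (SE, limma adjusted p = 0.184), and 89.8% of its 31-base sequence windows also occur in other genes, so its counts may include reads of copies. Its value per kilobase, 42969, was the highest of the 84.

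Rpl36a, on chromosome X (134585654 to 134588062), stood at 7387, 6877 and 6274 in RORγt+ and 9749, 8621 and 9599 in RORγt− (log2 fold change −0.45 ± 0.12 SE, limma adjusted p = 0.222). Rpl12, part of the base of the stalk that recruits translation factors, stood at 9559, 8015 and 9546 against 12712, 11662 and 12059.7, a log2 fold change of −0.43 ± 0.12 (SE, adjusted p = 0.243). Rpl21 stood at 12182, 11163 and 9461 against 14349.7, 13878 and 15299, with −0.41 ± 0.13 (SE, adjusted p = 0.308). In all 3 of these genes the groups did not overlap, and RORγt+ replicate 3 was the lowest library for Rpl36a and Rpl21 but not for Rpl12. Rpl38, a protein known from mutant mice to favour translation of certain Hox messages, stood at 6690.4, 5954 and 6493 against 8399, 7139 and 7872 (−0.29 ± 0.12 SE, adjusted p = 0.432).

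Rpl5 and Rpl11 bind the 5S ribosomal RNA and, when free of the ribosome, inhibit Mdm2, the ligase that degrades p53. Rpl11 stood at 8396, 7750.2 and 7886 in RORγt+ and 10597, 9049 and 9583 in RORγt−, without overlap (log2 fold change −0.28 ± 0.11 SE, limma adjusted p = 0.434). Rpl5 stood at 4756, 3943 and 2934 against 5046, 4339 and 4878, so RORγt+ replicate 1 lay among the RORγt− libraries and replicate 3 far below them (−0.32 ± 0.19 SE, adjusted p = 0.626). Among 10 p53 pathway genes limma called 0, and 0 had an unadjusted p under 0.05. Their median log2 fold change was 0.04. With no overlap, 1 was higher, Cdkn1a, and 1 was lower, Sesn2, against 8.31% and 9.81% of all genes. Cdkn1a, at 6.08 to 20.98 normalized counts, had the smallest limma adjusted p of the list, 0.534.

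The acidic stalk proteins Rplp0, Rplp1 and Rplp2, which recruit and stimulate elongation factors, showed the split of RORγt+ replicate 3 most plainly. Rplp0 (chromosome 5, 115559467 to 115563727) stood at 24920.1, 23443 and 41064 in RORγt+ and 30879, 28250.1 and 27318 in RORγt−. Rplp1 stood at 13393, 11667 and 24962 against 16726, 15363 and 15648. Rplp2 stood at 15582, 12891 and 22309 against 20244, 18353 and 17653. In each of the 3, RORγt+ replicates 1 and 2 were below every RORγt− library and replicate 3 was above every one. Their fold changes over all libraries, 0.00, −0.01 and −0.18 on the log2 scale, average these opposite positions, and limma's adjusted p ranged from 0.831 to 0.998. Without RORγt+ replicate 3 the log2 fold change of Rplp0 was −0.25 (limma adjusted p = 0.223).

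Rpl10, which joins the large subunit last in its assembly, and Rpl35, which lies near the exit of the tunnel, had the same pattern. Rpl10 (chromosome X, 74270812 to 74273135) stood at 4257, 4069 and 8275 in RORγt+ and 5770, 5662 and 5771 in RORγt−. Its log2 fold change was −0.13 ± 0.26 (SE, limma adjusted p = 0.925) with all libraries and −0.46 ± 0.07 (SE) without RORγt+ replicate 3. Rpl10-ps3, a row outside the 84 that shares 75.8% of the sequence windows of Rpl10, held 52.4%, 49.5% and 45% of the pair's counts in RORγt+ and 45.9%, 46.1% and 43.6% in RORγt−, so the counts of Rpl10 depend on how reads were divided between them. Rpl35 stood at 2675, 2592 and 5786 against 3037, 3090.04 and 3434, with a log2 fold change of 0.11 ± 0.30 (SE, adjusted p = 0.953). Of the sequence windows of Rpl35, 99.02% occur in other genes, so its counts also depend on how reads were divided. Rpl13a, which also takes part in silencing inflammatory messages in myeloid cells, stood at 23620, 21346 and 30434 against 25933, 25022 and 25674 (−0.04 ± 0.15 SE, adjusted p = 0.97).

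Among the small-subunit proteins, Rps19 (chromosome 7, 24884371 to 24889806), a gene often mutated in Diamond-Blackfan anaemia, stood at 11719, 11330.3 and 12099.8 in RORγt+ and 17069.6, 14230.3 and 15224 in RORγt−. The groups did not overlap, and the RORγt+ libraries, replicate 3 included, lay close together. The log2 fold change was −0.40 ± 0.12 (SE, limma adjusted p = 0.266). Rps26, another gene of that disease, stood at 5056, 4259 and 4318 against 5453, 5094 and 5367, again without overlap (−0.23 ± 0.12 SE, adjusted p = 0.564).

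Rps6 is the substrate of S6 kinase, and its phosphorylation is a common readout of mTORC1. Its message stood at 21394, 19295 and 20999 in RORγt+ and 24168, 22175 and 23867 in RORγt−, without overlap but by a margin narrower than the SD of either group, 1116 and 1074 (log2 fold change −0.19 ± 0.11 SE, limma adjusted p = 0.635). Rps27a, made as a fusion with ubiquitin, stood at 9225, 7525 and 9461 against 9180.2, 8669 and 8852, with the groups overlapping (−0.03 ± 0.13 SE, adjusted p = 0.969). Rpsa, which also binds laminin at the cell surface, stood at 20884, 18769 and 37399 against 25379, 26990 and 23769.7 (−0.05 ± 0.25 SE, adjusted p = 0.974). RORγt+ replicate 3 was the highest of the 6 libraries for Rpsa, as it was for Rps16 at 14102 against 7691 to 10266 in the other 5.

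Paralogues are second genes for a ribosomal protein. Rps27l, a p53-induced paralogue of Rps27, was the 1 gene whose RORγt+ libraries were all above the RORγt− libraries, at 227, 276 and 261 normalized counts against 204, 208 and 208. Its log2 fold change was 0.30 ± 0.16 (SE, limma adjusted p = 0.595). It held 2.53%, 3.62% and 2.48% of the pair's counts in RORγt+ and 1.93%, 2.18% and 1.98% in RORγt−, without overlap. Rps27 itself stood at 8749, 7333 and 10292 against 10381, 9346 and 10273 (−0.20 ± 0.15 SE, adjusted p = 0.716).

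Rpl22, which is needed for the development of alpha-beta T cells, stood at 4444, 3866 and 3762 in RORγt+ and 5002, 4483 and 4708 in RORγt−, without overlap (log2 fold change −0.24 ± 0.12 SE, limma adjusted p = 0.546). Its paralogue Rpl22l1 stood at 1147, 618 and 777 against 860.3, 1088 and 851, with no order between the groups (−0.18 ± 0.24 SE, adjusted p = 0.867). Rpl7l1, a paralogue of Rpl7, stood at 817, 852 and 869 against 1077, 1019 and 889.96, lower without overlap by a narrow margin (−0.23 ± 0.13 SE, adjusted p = 0.607). Rpl7 stood at 20187, 18831 and 19874 against 22263, 22162 and 22006 (−0.17 ± 0.10 SE, adjusted p = 0.638). Rpl36al, a paralogue of Rpl36a that the symbol rule leaves out, held 21.2%, 20.4% and 24% of the pair's counts in RORγt+ and 16.4%, 18.7% and 16.6% in RORγt−. This share did not overlap between the groups.

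The 4 copies annotated as pseudogenes were the least abundant of the 84 per kilobase, at 172.9 to 345.4. Rps12l1 was listed at 0 in 4 libraries and stood at 625 in RORγt+ replicate 3 and 202 in RORγt− replicate 2. It has no introns and lies at chr7:56014016-56014414 on the plus strand, and all of its 31-base windows occur in Rps12 (chr10:23785183-23787275, minus strand). The first 60 bases of the Rps12l1 transcript and the same stretch within Rps12, from GENCODE M21 in GRCm38, are shown to make plain that no base in this stretch, nor in the whole 399-base copy, tells the genes apart.

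Rps12: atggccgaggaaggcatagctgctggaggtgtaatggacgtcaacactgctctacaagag
Rps12l1: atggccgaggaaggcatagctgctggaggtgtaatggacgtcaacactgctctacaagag

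The values of Rps12l1 therefore cannot be separated from those of Rps12. That gene stood at 10175, 9230.5 and 11808 in RORγt+ and 12574, 10746 and 11078 in RORγt−, and fitted fold changes of the copy are no measure of its change. Rps3a2 and Rps3a3 share 84.8% and 67.2% of their windows with Rps3a1, and Rpl6l shares 72.2% of its windows with Rpl6. Rpl6l stood at 135, 119 and 188 against 260, 198.4 and 199 (log2 fold change −0.58 ± 0.24 SE, limma adjusted p = 0.429), and Rpl6 at 13269, 11936 and 16744 against 16553, 15684 and 15195. Over the 84 genes a median of 46.5% of windows, from 1.95% to 100%, occur in other genes. In the 45 genes under 50% the median log2 fold change was −0.15.

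Levels can be compared between genes per kilobase of transcript. Of the 100 genes with the highest normalized counts per kilobase in these Tregs, 57 were cytosolic ribosomal protein genes. The 80 protein-coding genes ranged from 462 for Rps27l to 42969 for Rpl23a, with a median of 15891. Behind Rpl23a came Rps15 at 42435, Rplp2 at 42372, Rpl41 at 34068 and Rplp1 at 32652. Rps15 stood at 17419, 16766 and 23283 normalized counts in RORγt+ and 24958, 21723 and 23153 in RORγt− (log2 fold change −0.29 ± 0.16 SE, limma adjusted p = 0.579), and Rpl41, the shortest ribosomal protein, at 14597, 13065 and 16219 against 16158, 14797 and 14492 (−0.05 ± 0.13 SE, adjusted p = 0.939). In both, RORγt+ replicate 2 was the lowest library.

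Deviations in the RORγt+ libraries went along with base composition in part, more in replicate 1 than in replicate 3. The part of base composition in the split of replicate 3 was not tested. Across the 80 protein-coding genes, the deviation from the gene's mean had a Pearson correlation with transcript GC content of −0.53 in RORγt+ replicate 1, −0.24 in replicate 2 and 0.34 in replicate 3. In the RORγt− libraries it lay between −0.15 and 0.03. The points are genes of 1 library, so these values are descriptions. Among 10224 other genes with a mean of at least 50 the same correlations were −0.40, −0.30 and 0.47 in the RORγt+ libraries and 0.25, −0.01 and −0.34 in the RORγt− libraries, so other genes had tilts of like sign in the RORγt+ libraries. With the log2 fold change itself, GC content had a correlation of 0.06 across the 80 genes.

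In the 40 genes of lower GC content (40.6% to 51.6%) the median deviation of RORγt+ replicate 3 was −0.07, and 22 were lower in RORγt+ with no overlap. In the 40 of higher GC content (51.8% to 60.8%) it was 0.16, and 10 were. The median log2 fold changes of these sets were −0.19 and −0.15. After GC content and length were regressed out of every library, the median over the 84 was −0.12, 66 were below 0 and 23 were lower with no overlap, against 10.2% of all genes in that fit. That correction was chosen after the data were seen.

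**Figure D4:**
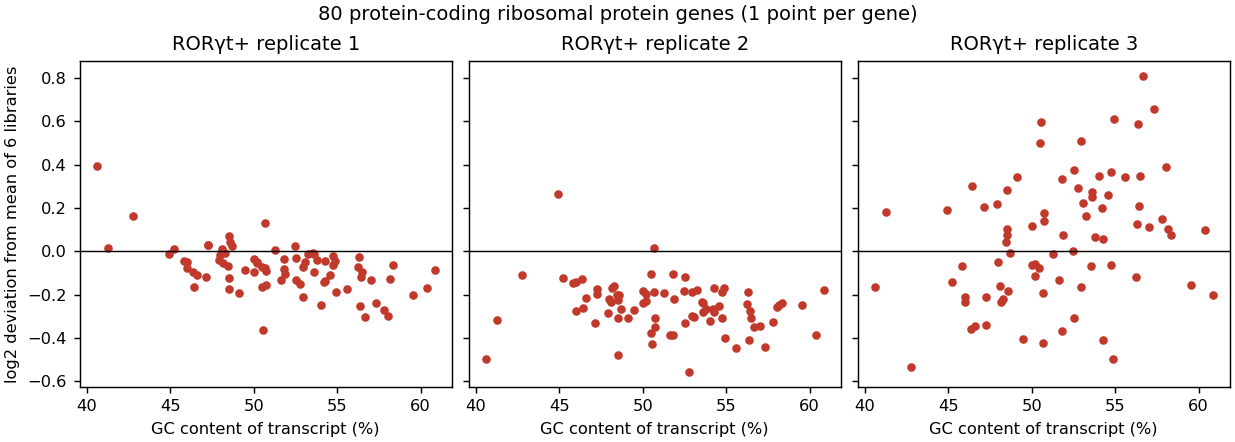
Each point is 1 of the 80 protein-coding genes, with the GC content of its transcript in percent (x axis) and its log2 deviation from the mean of the 6 libraries (y axis), in the 3 RORγt+ libraries. The points fall with GC content in replicate 1 (Pearson r = −0.53) and rise with it in replicate 3 (r = 0.34).

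The transcription starts of ribosomal protein genes were read from RefSeq windows of GRCm38.p6 that reach from 250 bases before to 50 bases after the annotated start, which were found for 60 of the 84. A run of at least 8 pyrimidines (C or T) over or next to the start was present in 33.33% of these 60 and in 7.533% of 10208 other genes of the table. Annotated starts can be off by some bases, so a gene without such a run here may still have one at its true start. Windows from 25 bases before to 15 bases from the start are shown for genes described above, to set those with a run (Rps6, Rpl38, Rps27, Rplp2, Rpl35) beside those without (Rps19, Rpl36a, Rplp0, Rps27l). Capitals mark the pyrimidine run over the start where it has at least 5 bases.

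Rps6, chr4:86857353-86857392, minus strand: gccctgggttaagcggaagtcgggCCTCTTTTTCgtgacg
Rpl38, chr11:114668555-114668594, plus strand: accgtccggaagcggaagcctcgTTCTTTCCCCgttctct
Rps27, chr3:90213634-90213673, minus strand: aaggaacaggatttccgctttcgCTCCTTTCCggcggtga
Rplp2, chr7:141447626-141447665, plus strand: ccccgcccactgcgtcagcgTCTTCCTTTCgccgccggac
Rpl35, chr2:39005117-39005156, minus strand: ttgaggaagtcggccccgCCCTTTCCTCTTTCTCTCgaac
Rps19, chr7:24884888-24884927, plus strand: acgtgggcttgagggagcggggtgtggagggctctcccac
Rpl36a, chrX:134585629-134585668, plus strand: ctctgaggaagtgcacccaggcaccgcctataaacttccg
Rplp0, chr5:115559442-115559481, plus strand: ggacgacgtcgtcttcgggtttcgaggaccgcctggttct
Rps27l, chr9:66946061-66946100, plus strand: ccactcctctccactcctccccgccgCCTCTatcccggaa

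Genes with and without the run stood alike between the groups by count and median. Rps6 and Rpl38 with a run and Rps19 and Rpl36a without were all lower in RORγt+ with no overlap. Rpl35 with a run and Rplp0 without were both high in RORγt+ replicate 3. The other genes shown differed: Rps27 and Rplp2 with a run overlapped between the groups, and Rps27l without was higher in RORγt+ with no overlap. The median log2 fold change was −0.19 in the 20 genes with a run and −0.175 in the 40 without, and in each set 40% were lower with no overlap. Of motifs searched on both strands of the whole window, CCGGAA, the core bound by ETS factors, was present in 56.67% of the 60 against 30.88% of other genes. TATAAA was present in 11.67% against 9.414% and AAGATGGC, part of the YY1 motif, in 10% against 5.104%. A palindrome of 10 bases with CGCG at its centre was present in 10% of the 60 (6 genes) against 1.097%, and 4 of those 6 were lower with no overlap, against 37% of the other 54. The median log2 fold change was −0.18 with CCGGAA (34 genes) and −0.24 without (26 genes), while 44.1% and 34.6% of these were lower with no overlap.

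Other genes of the same machinery were read from lists. TOP messages outside the ribosomal protein symbols had a median log2 fold change of −0.16. Limma called 0 of 14 in either direction, where it called 0.564% of all genes. At an unadjusted p under 0.05 there were 4 lower, against 6.12% of all genes. Without overlap 4 were lower (28.6%), against 9.81% of all genes. The median was near that of the 84 genes, but the libraries behind it differed. The median deviation of the TOP list was −0.05, −0.03 and −0.29 in RORγt+ replicates 1 to 3, where that of the 84 was −0.08, −0.26 and 0.08. RORγt+ replicate 3 was the lowest of 6 libraries for 8 of the 14, such as Npm1, a nucleolar chaperone, at 4231 against 7950.4 to 11316 in the other 5, and the highest for 2. Fau, which encodes eS30 fused to a ubiquitin-like protein, stood at 9149, 8444 and 10192 normalized counts in RORγt+ and 10793, 9482 and 9592 in RORγt− (limma adjusted p = 0.838). Rack1, a small-subunit scaffold, stood at 17281, 15473 and 29424 against 20616, 19890.2 and 18678, and was 1 of those 2. Tpt1, a growth-related TOP message, had a log2 fold change of −0.35 ± 0.12 (SE, adjusted p = 0.349).

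Of the elongation factors, limma called 0 of 8, with a median of −0.06. At an unadjusted p under 0.05 there was 1 lower, against 6.12% of all genes. Eef1a1, which brings aminoacyl-tRNA to the ribosome, stood at 131748, 120498 and 147510 in RORγt+ and 157799, 151459 and 153468 in RORγt−, without overlap (adjusted p = 0.648). Eef2, which moves the ribosome along the message, stood at 49382, 49578 and 77538 against 60155, 53719 and 51735 (adjusted p = 0.963). RORγt+ replicate 3 was thus below every RORγt− library for Eef1a1 and above every one for Eef2. Among 36 initiation factors limma called 0, with a median of 0.01. At an unadjusted p under 0.05 there were 2 lower, against 6.12% of all genes. Among these 36, Eif4g1, the scaffold of the cap-binding complex, had the smallest limma adjusted p, 0.213, with a log2 fold change of −0.45.

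Mitochondrial ribosomal proteins are encoded by nuclear genes and imported to build the separate ribosome of that organelle. Limma called 0 of 78 of them, with 1 lower and 2 higher at an unadjusted p under 0.05, against 6.12% and 4.8% of all genes. Their median log2 fold change was 0.03, 33 were below 0 and 5.13% were lower with no overlap, against 39.3% of the 84 cytosolic genes and 9.81% of all genes. Their median deviation was 0.22 in RORγt+ replicate 3 and between −0.12 and 0.01 in the other 5 libraries. Limma also called 0 of 78 ribosome biogenesis genes, with 3 lower at an unadjusted p under 0.05, a median of −0.12 and 14.1% lower with no overlap. Mdn1, which strips assembly factors from the young large subunit, had the smallest adjusted p there, 0.19, with means of 2225 ± 581 and 3855 ± 263 normalized counts (SD, n = 3). Limma called 0 of 15 RNA polymerase I genes (median 0.03), 0 of 9 measured quality control genes (median 0.08) and 0 of 23 measured mTORC1 and MYC regulators (median −0.14). At an unadjusted p under 0.05 these lists held 0, 0 and 2 genes, the last both lower. Myc, which drives ribosome production, stood at 1078, 938 and 857.5 against 982, 1161 and 1105 (adjusted p = 0.735), and Larp1 at 2605, 3182 and 2438 against 3277, 3178 and 3118 (adjusted p = 0.626).

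**Figure D5:**
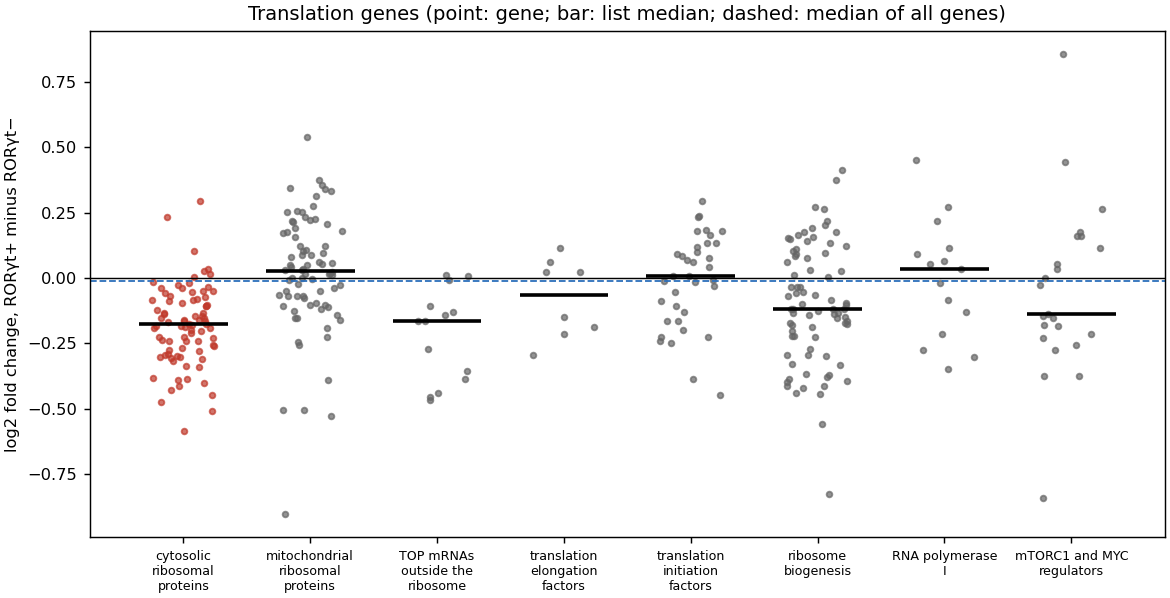
Log2 fold change (y axis, RORγt+ minus RORγt−, on the log2(normalized count + 1) scale) of each gene in the cytosolic ribosomal protein set (red) and 7 lists of translation genes (grey); Rps12l1 is not drawn. Black bars are list medians and the dashed line is the median of all genes, −0.01; the cytosolic set and the TOP list have the lowest medians, −0.18 and −0.16, and the mitochondrial ribosomal proteins lie around 0.03.

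Heat shock and early response genes, which mark handling of cells during a sort, had their highest sum in the same library as the ribosomal protein share, RORγt− replicate 1. The 20 listed genes summed to 60674, 62742 and 87468 normalized counts in RORγt+ and 107923, 78234 and 100189 in RORγt−, with a median log2 fold change of −0.44. RORγt+ replicate 3 was highest within its group, as for the ribosomal protein share, but RORγt− replicate 3 was the second highest of all, where its ribosomal protein share was the lowest of its group. Limma called 0 of the 20, with Fosb nearest at an adjusted p of 0.0593. At an unadjusted p under 0.05 there were 6 lower, against 6.12% of all genes. The part of this list in the ribosomal protein values was not tested.

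The genes outside the set with the pattern most like the mean of the 84 standardized profiles over the 6 libraries were Wdr89 (Pearson r = 0.9963), Rnaset2b (0.9931), Eef1g (0.9914), Timm10b (0.9869) and Rpl31-ps15 (0.9823), of 9875 genes searched. The 6 points are libraries of both groups, and the ranking is a description. Wdr89 shares sequence with Rplp2, 33.1% of whose windows occur in it, and Rpl31-ps15 is a copy of a ribosomal protein gene. Wdr89 stood at 999.2, 756 and 1257 in RORγt+ and 1527, 1206 and 1302 in RORγt−. Eef1g, a subunit of the factor that recharges Eef1a1, stood at 6575, 5843 and 7209 against 7805, 7049 and 7431.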

How the data were processed

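Bulk RNA-seq of 6 libraries, 3 of each group, was analysed. The authors deposited 1 signal value per gene and library, rounded to 2 decimals, which is a normalized count rather than a raw one. The submitters' processing notes name Salmon 1.2.0, DESeq2 and GRCm38. The annotation and any filters they used were not given in sources used here. Low values lay within 0.1 read of a whole read in 51.9% to 69.9% of cases, so reads were not recovered and no count model was fitted.

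Values were analysed as log2(value + 1) with limma 3.58.1 in R 4.3.3 (group as the only term, a mean-variance trend in the empirical Bayes step, two-sided tests, Benjamini-Hochberg adjustment over all 15944 genes, threshold 0.05), with 4 residual and 3.43 prior degrees of freedom. No filter was applied. The members and lists were chosen with earlier results of these data known. Named members were the 5 most and 5 least abundant per kilobase, the 6 highest and 6 lowest fold changes, stalk proteins, paralogues, the parent genes of copies and a set chosen by role. Of each other list, up to 3 genes with the lowest adjusted p and 8 set genes were eligible, and the most alike genes were ranked by Pearson correlation. Some results that this rule covers are not reported here. Annotation was GENCODE M21 (GRCm38), with 15851 of 15944 identifiers found. Lengths and GC content came from 1 principal transcript per gene. Shared sequence was counted in 31-base windows. Alternatives were other pseudocounts, scalings, a minimum mean of 10, library weights, no trend, quantile normalization, summing with -ps rows, a replicate block, each library left out and a GC and length correction added after seeing the data.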

Additional observations from a re-analysis of the deposited data

How the results depend on the processing

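Limma called 0 of the 84 ribosomal protein genes under every alternative tried, and their median log2 fold change stayed below 0, from −0.08 without RORγt+ replicate 2 to −0.25 without RORγt+ replicate 3. The number of all genes called, 90 in the reported fit, was 358 with array weights, 155 with the GC and length correction, and 4 to 174 when 1 library was left out. With the replicate number as a block it was 1. Same-numbered libraries had deviations that correlated at −0.17, −0.05 and −0.28, and 0 libraries were closest to their own number. These values show no likeness by number. They cannot tell whether same-numbered libraries share an animal or a sort, which the labels do not state. The block changed no call among the 84. Genes lower with no overlap numbered 33 to 68 when 1 library was left out, with 68 without RORγt+ replicate 3, against 13.2% to 18.4% of all genes in those fits and 9.81% with all libraries. The summed share differed by −0.451 to −1.4 percentage points in those fits.

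Of 36 named genes, 14 changed the sign of their log2 fold change under some alternative, and none of these passed the test in any of them. Scaling to the column total gave Rplp1 0.0144, and scaling to the total without ribosomal protein and mitochondrially encoded genes gave Rplp0 −0.0086. Upper-quartile scaling gave Rps14 −0.0224, Rps16 −0.0149 and Rplp0 −0.0456. Array weights gave Rps14 −0.12, Rps16 −0.17, Rpl35 −0.20, Rplp0 −0.20 and Rps12l1 −2.46. Quantile normalization gave Rplp1 0.0187, Rpsa 0.0985, Rps4x 0.0165 and Rpl13a 0.17. The GC and length correction gave Rpl41 0.0036, Rplp1 0.0252, Rps3a3 0.0324 and Rps27a 0.0668. The cause of these sign changes was not tested. In fits that left out 1 library, the values ranged from −0.46 to 0.0497 for Rpl10, −0.19 to 0.0701 for Rpl13a, −0.42 to 0.0263 for Rpl22l1, −0.27 to 0.31 for Rpl35, −0.13 to 0.0241 for Rpl41, −0.25 to 0.15 for Rplp0, −0.35 to 0.20 for Rplp1, −0.15 to 0.19 for Rps14, −0.21 to 0.23 for Rps16, −0.0948 to 0.0703 for Rps27a, −0.25 to 0.15 for Rps3a3, −0.26 to 0.0335 for Rps4x, −0.36 to 0.14 for Rpsa and −2.56 to 3.10 for Rps12l1. The values for Rps12l1, which is listed at 0 in 4 libraries and cannot be told apart from Rps12, are outputs of the fits and no measure of change. By the estimated value of a single read, a gene near 200 normalized counts rests on roughly as many reads.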
